A study of Mus musculus with 8 samples.

Results

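The genes described here encode 10 proteins of the junctions that hold endothelial cells together: Cdh5, Ctnnb1, Ctnnd1, Cldn5, Ocln, Esam, Jam2, F11r, Tjp1 and Pecam1. They were chosen by symbol as adherens and tight junction proteins, and all 10 were found among the 43430 gene IDs of the count table. RNA was sequenced from lung endothelium of C57BL/6 pups, sorted by CD31 at postnatal day 15, with 4 libraries from wild-type mice (WT) and 4 from mice with an induced endothelial knockout of the complex III subunit QPC (KO). Complex III is part of the mitochondrial respiratory chain. Tamoxifen, which induces the deletion, was dosed on postnatal days 0 to 4, and this treatment text stands on the labels of both groups. The sources used here do not name the Cre driver, nor say whether WT mice carried it or whether each library was a separate mouse, so a p-value here reflects the variation among these libraries, which may be technical.

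Endothelial cells are joined by adherens and tight junctions, which lie intermingled along the cell border. In the adherens junction VE-cadherin (Cdh5) binds its like on the next cell, and beta-catenin (Ctnnb1) and p120-catenin (Ctnnd1) bind its cytoplasmic tail. In the tight junction claudin-5 (Cldn5), occludin (Ocln) and the immunoglobulin-like proteins of the JAM family span the membrane, and ZO-1 (Tjp1) is a scaffold that ties them to actin. In the lung this border keeps plasma out of the air space.

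Of the 10 genes 1 was called lower in KO and 0 higher. It was Tjp1, with a KO mean of 504 ± 52.2 and a WT mean of 906 ± 144 CPM (SD, n = 4 each), where CPM is the read count of a gene normalised to its library size after TMM scaling. Called means an adjusted p under 0.05 by the quasi-likelihood test of edgeR over all 12689 genes tested, of which 3.63% were called in either direction and 1.39% were called lower. Cdh5 lay lower in every KO library than in any WT library without being called. Cldn5, Esam, Ctnnb1 and the sorting marker Pecam1 had KO means within 4% of WT in either direction (-3.99% for Pecam1 to 3.39% for Ctnnb1). The KO means of the remaining members were lower without being called. They differed from WT by -24.3% for Ctnnd1, -22.0% for Cdh5, -21.2% for Jam2, -17.8% for Ocln and -11.6% for F11r.

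The median log2 fold change of the 10 genes was -0.23, beside 0.01 over all genes tested, and 7 of the 10 values were negative. All 10 passed the filter on low counts, with 645 to 50839 reads per gene and library. Before adjustment 3 of the 10 genes had an edgeR p under 0.05 (Cdh5, Tjp1 and Ctnnd1), against 15.2% of all genes tested. KO and WT libraries did not overlap for 2 of the 10, Tjp1 and Cdh5, both lower in KO, against 4.67% of all genes separated in that direction, 6.94% separated upward and 11.6% in either. With counts from sorted pools, fewer cells of a type and less RNA per cell cannot be told apart.

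**Figure D1:**
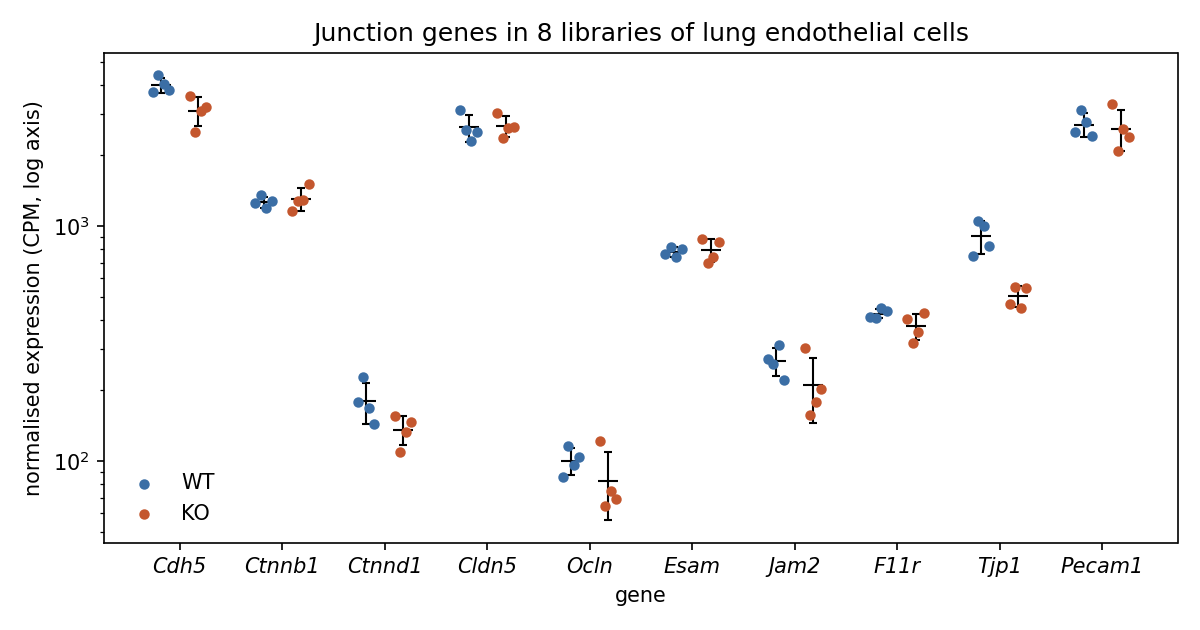
Normalised expression (CPM, log axis) of the 10 junction genes, with 1 point per library, WT in blue and KO in orange, and black bars for the mean ± SD (n = 4 each). The KO points of Tjp1 (450 to 552 CPM) lie under all its WT points (749 to 1051 CPM), as do those of Cdh5, while the points of the other 8 genes overlap.

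Library totals ran from 6407924 to 13981329 counts. Uqcrq, taken here to be the gene of QPC, ranged from 24.5 to 31.5 CPM (WT) and from 1.59 to 15.6 CPM (KO) and was not called (edgeR adjusted p = 0.179). The label of endothelial cells was checked against 10 defining markers (Tek, Kdr, Flt1, Tie1, Egfl7, Emcn, Erg, Ecscr, Robo4 and Sox17), all above 0 in every library. Their sum was 6610 to 8361 CPM in WT and 6375 to 7383 CPM in KO. Of the 10, 2 were called lower (Tek and Erg) and 0 higher, against 1.39% and 2.25% of all genes tested. An unadjusted edgeR p under 0.05 was held by 3 of the 10, against 15.2% of all genes tested. Besides Tek and Erg this was Emcn, higher in KO (log2 fold change 0.35). Markers of alveolar type 2 cells, the surfactant-making epithelium, were present in every library too. These 8 genes summed to 3805 to 21996 CPM in WT and 3644 to 16005 CPM in KO, with 0 called by edgeR, 0 with an unadjusted p under 0.05 and none at 0. All 8 had negative log2 fold changes (median -0.47). Their libraries spread widely within a group (Sftpc log2 fold change -0.47, SE 0.69), so a difference of this size could go uncalled. Of 9 epithelial junction, airway and alveolar type 1 markers 0 were called and 1 had an unadjusted p under 0.05, with sums of 299 to 1246 CPM in WT and 377 to 1510 CPM in KO. Of 9 leukocyte markers 5 were tested and 0 called, by the unadjusted p too. Their sum, 418 to 2005 CPM in WT and 395 to 1497 CPM in KO, was nearly all Lyz2, which alveolar type 2 cells also express, and Ptprc, the common leukocyte antigen CD45, was at 0 in 2 WT libraries and at most 9.37 CPM in the other libraries. Markers of platelets (14.5 to 37.0 CPM summed in WT, 18.2 to 63.1 in KO), mesenchymal cells (141 to 985 and 194 to 839) and lymphatic endothelium (1186 to 2423 and 1165 to 2281) had 0 of 5, 8 and 7 tested members called, and none of these had an unadjusted p under 0.05. Of the 8 mesenchymal markers 7 had negative log2 fold changes (median -0.38). Those of 4 of the 5 platelet and 4 of the 7 lymphatic markers were positive.

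Tjp1 encodes ZO-1, a scaffold under the membrane whose PDZ domains bind the tails of claudins and JAM proteins and which also reaches alpha-catenin and actin. The gene (ENSMUSG00000030516) spans 65296165 to 65527781 of chromosome 7 in GRCm38, the mm10 build, is read from the minus strand and has 7811 exonic bases in 31 merged exon blocks. Tjp1 expression was 749, 1051, 1001 and 822 CPM in the WT replicates 1 to 4, against 468, 552, 450 and 545 CPM in the KO replicates. The lowest WT library stood well above the highest KO library. KO held 55.6% of the WT mean, a log2 fold change of -0.85 (SE 0.14, 95% interval -1.14 to -0.55, edgeR adjusted p = 0.0025). Leaving out any 1 library kept the adjusted p between 0.00319 and 0.0136. When the mean log2 CPM of the alveolar type 2 markers entered the model the log2 fold change was -0.89 (edgeR adjusted p = 0.000988).

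Ctnna1 encodes alpha-catenin, which links the cadherin complex to actin, and averaged 929 ± 51.3 (WT) and 877 ± 40.9 CPM (KO) (log2 fold change -0.08, SE 0.11, edgeR adjusted p = 0.852). The ratio of Tjp1 to Ctnna1 within a library, both as CPM per kilobase of exon, needs no scaling between libraries. It was 0.643, 0.886, 0.892 and 0.786 for WT (replicates 1 to 4), against 0.413, 0.544, 0.429 and 0.511 for KO. Every KO library had a lower ratio than every WT library, with means of 0.474 ± 0.0633 in KO and 0.802 ± 0.116 in WT (SD, n = 4 each). Against Cdh5 the KO and WT ratios overlapped, at 0.0895 ± 0.0210 in KO and 0.122 ± 0.0118 in WT. The ratios were chosen after the values were seen and are given as descriptions, with no test.

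**Figure D2:**
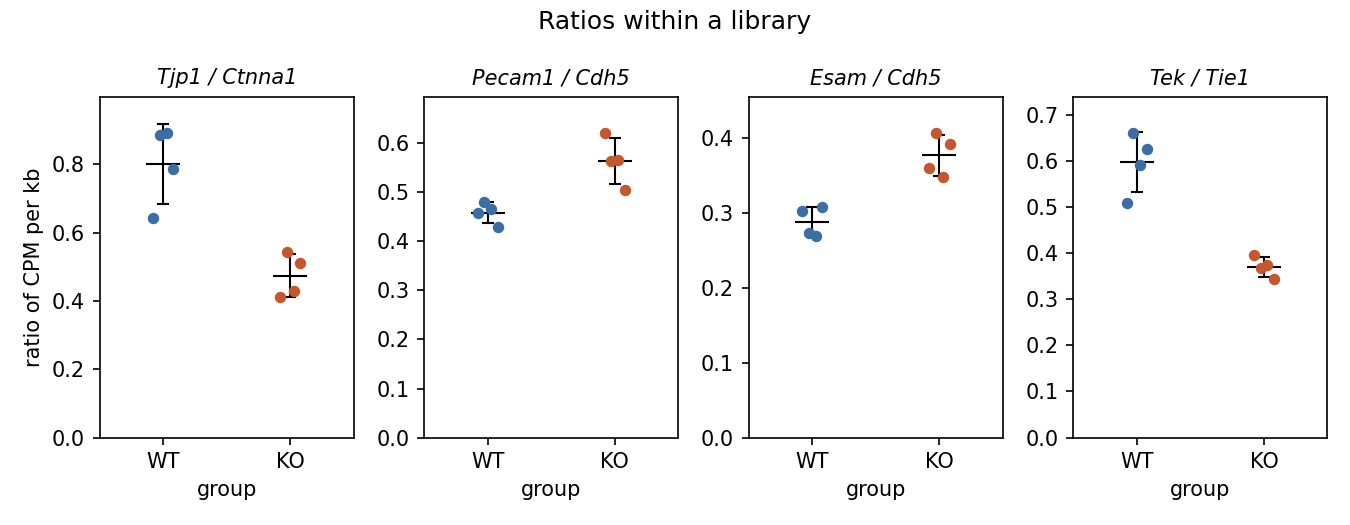
Ratios of CPM per kilobase of exon between pairs of genes within each library (1 point per library, WT blue, KO orange, black bars mean ± SD, n = 4 each, axes from 0). The KO points lie below the WT points for Tjp1 over Ctnna1 (0.413 to 0.544 against 0.643 to 0.892) and Tek over Tie1, and above them for Pecam1 and Esam over Cdh5.

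The promoter windows of Tjp1, the gene that was called, and of Cldn5, a tight junction gene with nearly equal means, are printed as examples, since Erg, an ETS factor gene described further on, was called lower. They come from RefSeq (GRCm38.p6) and run from 250 bases before to 50 after the annotated start, 5′ to 3′ on the gene's strand. Capitals mark the ETS core GGAA or its reverse complement TTCC. The Tjp1 window is chr7:65371195-65371494 on the minus strand, inside the annotated gene span, and the Cldn5 window is chr16:18776597-18776896 on the plus strand.
Tjp1: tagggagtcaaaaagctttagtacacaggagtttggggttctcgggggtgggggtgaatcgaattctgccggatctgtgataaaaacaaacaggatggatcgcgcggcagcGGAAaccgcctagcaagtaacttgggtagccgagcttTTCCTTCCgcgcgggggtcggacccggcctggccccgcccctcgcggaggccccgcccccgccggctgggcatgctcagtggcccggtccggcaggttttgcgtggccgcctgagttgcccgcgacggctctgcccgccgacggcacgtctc
Cldn5: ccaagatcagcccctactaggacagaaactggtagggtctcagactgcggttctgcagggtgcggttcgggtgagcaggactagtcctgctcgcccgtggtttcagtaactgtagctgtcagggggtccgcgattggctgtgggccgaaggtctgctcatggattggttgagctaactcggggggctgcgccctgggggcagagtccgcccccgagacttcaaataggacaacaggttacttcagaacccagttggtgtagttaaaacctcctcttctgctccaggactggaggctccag
The Tjp1 window holds 3 matches to GGAA on either strand and the Cldn5 window 0, and neither holds the longer CCGGAA, which contains GGAA. Over all 32851 windows of the same 300 bases, 96.0% hold GGAA, with a median of 3 matches, and 14.9% hold CCGGAA. Windows were found for 6 of the 10 junction genes. Members that were not called held GGAA as well, with 4 and 2 matches in the windows of Ctnnb1, 4 in that of F11r, 7 and 4 in those of Ctnnd1 and 2 in each of those of Ocln. With 1 gene called and GGAA in 96.0% of all windows, the number of matches cannot tell called from uncalled genes. A relation between matches and calls was not tested. CCGGAA occurred once (1 match) in a window of Ocln and in a window of Ctnnd1. A match is a run of letters and says nothing of binding in these cells.

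Cdh5 encodes VE-cadherin, the adherens junction cadherin that is nearly restricted to endothelium. The gene (ENSMUSG00000031871) spans 104101625 to 104144511 of chromosome 8 in GRCm38 and is read from the plus strand. Its expression was 3706, 4385, 4006 and 3810 CPM in the WT replicates 1 to 4, against 3588, 2515, 3099 and 3201 CPM in the KO replicates. All 4 KO libraries were below all 4 WT libraries, although KO replicate 1 came close to the lowest WT value. The KO mean of 3101 ± 444 CPM was 78.0% of the WT mean of 3977 ± 299 CPM (SD, n = 4 each). The log2 fold change of -0.36 (SE 0.12, 95% interval -0.62 to -0.10) did not pass over all genes (edgeR adjusted p = 0.13). It passed by DESeq2 (adjusted p = 0.0165), by limma voom (adjusted p = 0.0357) and by edgeR with the alveolar type 2 level as a covariate (adjusted p = 0.0486). Leaving out single libraries left edgeR above the threshold each time.

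Ctnnb1 encodes beta-catenin, which binds the cadherin tail and is also the transcriptional effector of Wnt signalling. Its expression was 1249, 1352, 1189 and 1279 CPM in the WT replicates 1 to 4, against 1156, 1274, 1296 and 1514 CPM in the KO replicates. The KO values spread on both sides of the WT values. The log2 fold change was 0.05 (SE 0.12, 95% interval -0.20 to 0.30, edgeR adjusted p = 0.934). Of its exonic bases 14.6% overlap exons of Ulk4 on the opposite strand, which had at most 61 counts in any library.

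Ctnnd1 encodes p120-catenin, which keeps VE-cadherin at the cell surface. Its expression was 179, 229, 168 and 144 CPM in the WT replicates 1 to 4, against 155, 110, 134 and 147 CPM in the KO replicates. The groups overlapped, since WT replicate 4 lay below KO replicates 1 and 4. The log2 fold change of -0.40 (SE 0.17, 95% interval -0.77 to -0.03) did not pass (edgeR adjusted p = 0.272), and without WT replicate 2 it was -0.26 (edgeR adjusted p = 0.564). The gene shares 61.2% of its exonic bases with Gm28635, an overlapping gene on the same strand that is listed at 0 counts in all 8 libraries. The sources used here do not say how the authors' counting treated such shared bases, so the level of Ctnnd1 is uncertain.

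Cldn5 encodes claudin-5, the main sealing claudin of endothelium. The gene (ENSMUSG00000041378) has 1 exon, on the plus strand of chromosome 16 from 18776847 to 18778262 in GRCm38. Its expression was 3124, 2565, 2311 and 2517 CPM in the WT replicates 1 to 4, against 3022, 2381, 2611 and 2635 CPM in the KO replicates, and each group covered nearly the same span. The log2 fold change was 0.02 (SE 0.12, edgeR adjusted p = 0.985), with a 95% interval of -0.24 to 0.28.

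Ocln encodes occludin, a tight junction protein abundant in epithelium and in barrier-forming endothelium. Its expression was 85.5, 116, 96.4 and 104 CPM in the WT replicates 1 to 4, against 122, 64.7, 74.5 and 69.1 CPM in the KO replicates. KO replicate 1 held the highest value of all 8 libraries and the other 3 KO libraries were below every WT library. The log2 fold change was -0.28 (SE 0.22, 95% interval -0.75 to 0.18, edgeR adjusted p = 0.656). Without KO replicate 1 it was -0.53 (edgeR adjusted p = 0.179), and without KO replicate 2 it was -0.18 (edgeR adjusted p = 0.904).

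The JAM family proteins are immunoglobulin-like adhesion molecules that take part in junction assembly and in the passage of leukocytes. Esam, which is found on endothelium and platelets, had 763, 818, 736 and 800 CPM in the WT replicates 1 to 4, against 880, 697, 736 and 857 CPM in the KO replicates. The KO libraries lay on both sides of the WT range (log2 fold change 0.02, 95% interval -0.23 to 0.28, edgeR adjusted p = 0.977). Jam2, the gene of JAM-B, had 273, 259, 311 and 222 CPM in the WT replicates 1 to 4, against 302, 158, 178 and 202 CPM in the KO replicates. KO replicate 1 was again the exception, with the other 3 KO libraries below every WT library. Jam2 was not called (log2 fold change -0.34, 95% interval -0.75 to 0.06, edgeR adjusted p = 0.444), and without KO replicate 1 the log2 fold change was -0.57 (edgeR adjusted p = 0.0704). Without KO replicate 2 it was -0.23 (edgeR adjusted p = 0.781). F11r, the gene of JAM-A, which epithelium and platelets also express, had 409, 408, 448 and 433 CPM in the WT replicates 1 to 4, against 401, 318, 356 and 427 CPM in the KO replicates. Only KO replicate 4 reached into the WT range of F11r (log2 fold change -0.18, 95% interval -0.45 to 0.10, edgeR adjusted p = 0.629). For F11r that value was -0.10 without KO replicate 2 (edgeR adjusted p = 0.911) and -0.40 after correction of each library for exon length and GC content (edgeR adjusted p = 0.471).

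Pecam1 encodes CD31, an adhesion protein of the endothelial border outside the tight and adherens complexes. Its protein was the mark by which these cells were sorted. Pecam1 expression was 2509, 3125, 2768 and 2424 CPM in the WT replicates 1 to 4, against 3300, 2098, 2600 and 2397 CPM in the KO replicates. The KO libraries held both the highest and the lowest value (log2 fold change -0.06, 95% interval -0.36 to 0.24, edgeR adjusted p = 0.93). The ratio of Pecam1 to Cdh5, per kilobase, was 0.429 to 0.481 in WT and 0.505 to 0.621 in KO, without overlap. That of Esam to Cdh5 was 0.269 to 0.308 in WT and 0.348 to 0.406 in KO, also without overlap. The other ratios to Cdh5 that were computed overlapped between the groups. That of Cldn5 was 1.71 to 2.50 in WT and 2.44 to 2.81 in KO, and that of Ctnnb1 0.240 to 0.273 and 0.261 to 0.410. Those of Ctnnd1, Tjp1 and Jup, a gene described further on, overlapped too.

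Levels of different genes were compared as CPM per kilobase of exon. In WT the order was Cldn5 at 1857 ± 246, Cdh5 at 946 ± 71.2, Pecam1 at 435 ± 50.5, Esam at 272 ± 13.0, Ctnnb1 at 244 ± 13.0, F11r at 159 ± 7.42, Tjp1 at 116 ± 18.4, Jam2 at 44.1 ± 6.11, Ctnnd1 at 24.6 ± 4.87 and Ocln at 23.8 ± 3.05 CPM per kilobase (SD, n = 4). The ranges of the 4 WT libraries overlapped for Esam with Ctnnb1 and for Ctnnd1 with Ocln, and for no other neighbours in this order. In KO the first 8 places were the same, with Ocln (19.6 ± 6.31) and Ctnnd1 (18.6 ± 2.70) in the last places. The KO ranges overlapped for Esam with Ctnnb1, Jam2 with Ocln and Ocln with Ctnnd1. The place of Ctnnd1 in both orders is uncertain, since its full exon length was used although 61.2% of it is shared with Gm28635. Tjp1 at 64.5 ± 6.69 CPM per kilobase in KO kept its rank between F11r (141 ± 18.2) and Jam2 (34.7 ± 10.6). The 10 genes summed to 12557 to 14308 CPM in WT and 10166 to 13393 CPM in KO.

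**Figure D3:**
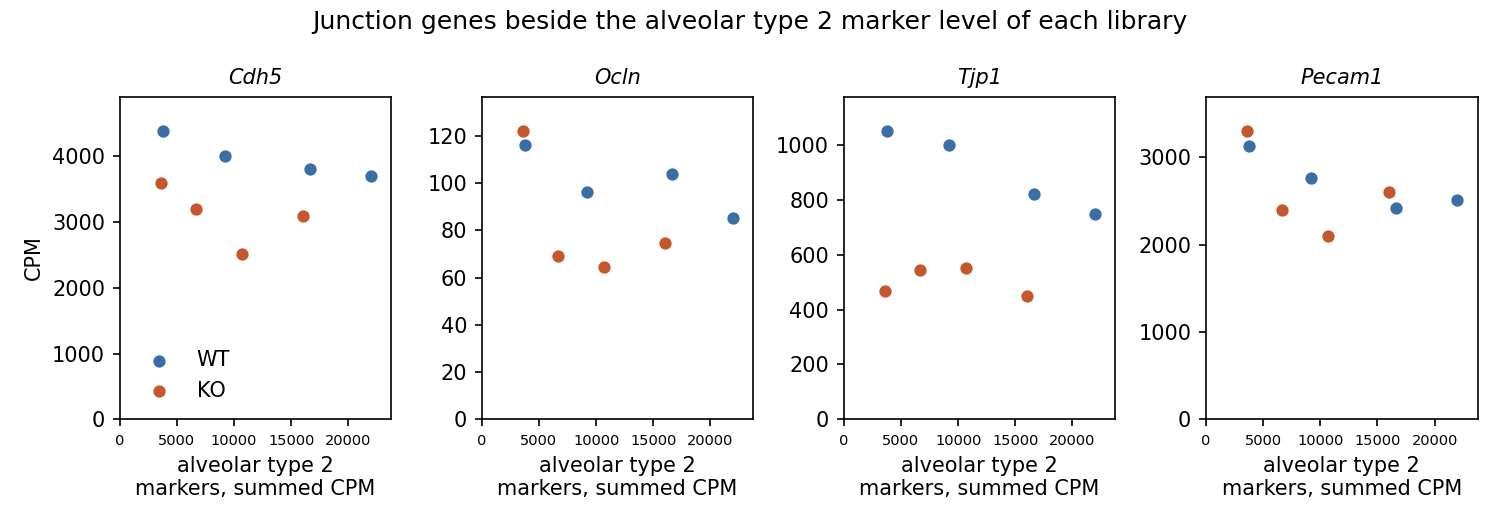
CPM of Cdh5, Ocln, Tjp1 and Pecam1 (vertical axes, from 0) against the summed CPM of 8 alveolar type 2 markers in the same library (horizontal axes), with 1 point per library, WT blue and KO orange. The libraries lowest in these markers, WT replicate 2 and KO replicate 1, are the highest of their group for Cdh5, Ocln and Pecam1, and the KO points of Tjp1 lie below its WT points along the whole axis.

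RNA of other cell types varied between the libraries of a group, and several of these genes were highest where alveolar type 2 RNA was lowest. WT replicate 2 (3805 CPM of alveolar type 2 markers) and KO replicate 1 (3644 CPM) were the lowest of their groups, and each had the highest Cdh5, Pecam1, Ocln, Esam and Ctnnd1 of its group. Other members followed in at most 1 group. F11r was lowest of the WT libraries in WT replicate 2. Ctnnb1 was highest of the WT libraries in WT replicate 2 but lowest of the KO libraries in KO replicate 1. Jam2 ranked 3 of 4 in WT replicate 2 but was highest of the KO libraries in KO replicate 1. Cldn5 too was highest of the KO libraries in KO replicate 1. Among the WT libraries Cldn5 was highest in WT replicate 1, the library with the most alveolar type 2 markers. WT replicate 2 and KO replicate 1 were also the highest of their groups in lymphatic markers (2423 and 2281 CPM) and in the 10 endothelial markers (8361 and 7383 CPM), and the lowest in mesenchymal markers (141 and 194 CPM). WT replicate 1 (21996 CPM) and KO replicate 3 (16005 CPM) were the highest of their groups in alveolar type 2 markers, and each had the lowest Tjp1 of its group. The inverse order did not hold throughout at this end. KO replicate 3 ranked 2 of 4 for Pecam1 and Ocln, and WT replicate 1 ranked 2 of 4 for Ctnnd1. The part of these other RNAs in the values of the members was not tested beyond the fit with the alveolar type 2 covariate, in which Tjp1 and Cdh5 passed and the other 8 did not.

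The other genes of the junctions were read from lists in the same fit. Of 17 other tight junction genes 16 were tested and 0 were called by edgeR, nor did any have an unadjusted p under 0.05 (median log2 fold change -0.05). Over all genes tested the shares were 3.63% and 15.2%, so 0 called among 16 lies near the share of all genes. The smallest p belonged to Cldn12, a claudin, with means of 26.1 ± 3.53 (WT) and 15.9 ± 6.58 CPM (KO), to Mpdz, a scaffold with many PDZ domains, at 64.2 ± 17.3 and 46.5 ± 16.3 CPM, and to Cldn15, at 1.14 ± 1.71 and 6.65 ± 3.76 CPM (edgeR adjusted p = 0.458, 0.5 and 0.566). KO replicate 1 held 6.09 CPM of Cldn12, far under the other KO libraries.

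Of 13 other adherens junction genes 1 was called higher and 0 lower (median log2 fold change -0.08), with 2.25% of all genes tested called higher. An unadjusted edgeR p under 0.05 was held by 3 of the 13, against 15.2% of all genes tested. The gene called was Vcl, which encodes vinculin, an actin linker recruited to junctions and focal adhesions under tension. Vcl had 220, 211, 269 and 195 CPM in the WT replicates 1 to 4, against 457, 296, 434 and 300 CPM in the KO replicates. Every KO library was above every WT library (log2 fold change 0.74, SE 0.17, edgeR adjusted p = 0.0223). The call of Vcl was lost without WT replicate 1 (adjusted p = 0.0583), WT replicate 2 (0.0671), WT replicate 4 (0.0825), KO replicate 1 (0.0597) or KO replicate 3 (0.0898), as well as after correction of each library for exon length and GC content (0.146). Cdh13, the gene of T-cadherin, averaged 18.2 ± 11.1 (WT) and 47.2 ± 16.8 CPM (KO) without being called (edgeR adjusted p = 0.0647). It was called in 4 alternatives, among them without WT replicate 4 (edgeR adjusted p = 0.0122) and by DESeq2 (0.0363). Arvcf, a catenin of the p120 family, averaged 7.39 ± 3.58 (WT) and 22.0 ± 6.01 CPM (KO), with every KO library above every WT library. Arvcf was not called by edgeR (adjusted p = 0.11) and was called by DESeq2 (adjusted p = 0.0406). Jup, the gene of plakoglobin, had 1172 ± 83.2 and 1009 ± 53.4 CPM (edgeR adjusted p = 0.391).

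Regulators of endothelial junctions had 4 of 20 members called lower and 1 higher, against 1.39% and 2.25% of all genes tested, with a median log2 fold change of 0.04. An unadjusted edgeR p under 0.05 was held by 7 of the 20, against 15.2% of all genes tested. Ptprb encodes VE-PTP, a phosphatase that associates with VE-cadherin and the TIE2 receptor. It had 1709, 3227, 2368 and 2253 CPM in the WT replicates 1 to 4, against 1524, 780, 1214 and 1093 CPM in the KO replicates, with no overlap. Its log2 fold change was -1.05 (SE 0.21, edgeR adjusted p = 0.0174), and the call was lost without WT replicate 3 (0.0512), KO replicate 3 (0.0546) or KO replicate 4 (0.0629). Ptprm, another receptor phosphatase of cell contacts, fell from 750 ± 77.4 to 518 ± 55.4 CPM (edgeR adjusted p = 0.0273). That call was lost without WT replicate 1 (0.065), WT replicate 2 (0.0821), WT replicate 3 (0.0558), KO replicate 2 (0.101) or KO replicate 4 (0.0628), or after the length and GC correction (0.143). Amotl2, which encodes an angiomotin that links VE-cadherin to actin, fell to 171 ± 24.6 CPM from 324 ± 60.8 CPM in WT, a change of -0.92 on the log2 scale (SE 0.16, edgeR adjusted p = 0.00385).

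Tek encodes TIE2, the angiopoietin receptor that steadies endothelial contacts, and Angpt2 encodes the ligand that can act as its antagonist. Tek fell to 583 ± 64.2 CPM from 941 ± 134 CPM in WT, a change of -0.69 on the log2 scale (SE 0.13, edgeR adjusted p = 0.00762), a call that was lost after the length and GC correction (adjusted p = 0.0517). Angpt2 had 24.6, 38.0, 12.1 and 13.5 CPM in the WT replicates 1 to 4, against 73.1, 43.5, 65.0 and 46.6 CPM in the KO replicates. All KO values were above all WT values (log2 fold change 1.37, SE 0.36, edgeR adjusted p = 0.0423). The call of Angpt2 held without WT replicate 2 and was lost without each other library: WT replicate 1 (0.0741), WT replicate 3 (0.0975), WT replicate 4 (0.122), KO replicate 1 (0.101), KO replicate 2 (0.0554), KO replicate 3 (0.121) or KO replicate 4 (0.057), or after the length and GC correction (0.112). Tie1, the sister receptor gene, had a log2 fold change of 0.000627 (SE 0.12, edgeR adjusted p = 0.999). The ratio of Tek to Tie1 per kilobase was 0.509 to 0.661 in WT and 0.344 to 0.396 in KO.

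**Figure D4:**
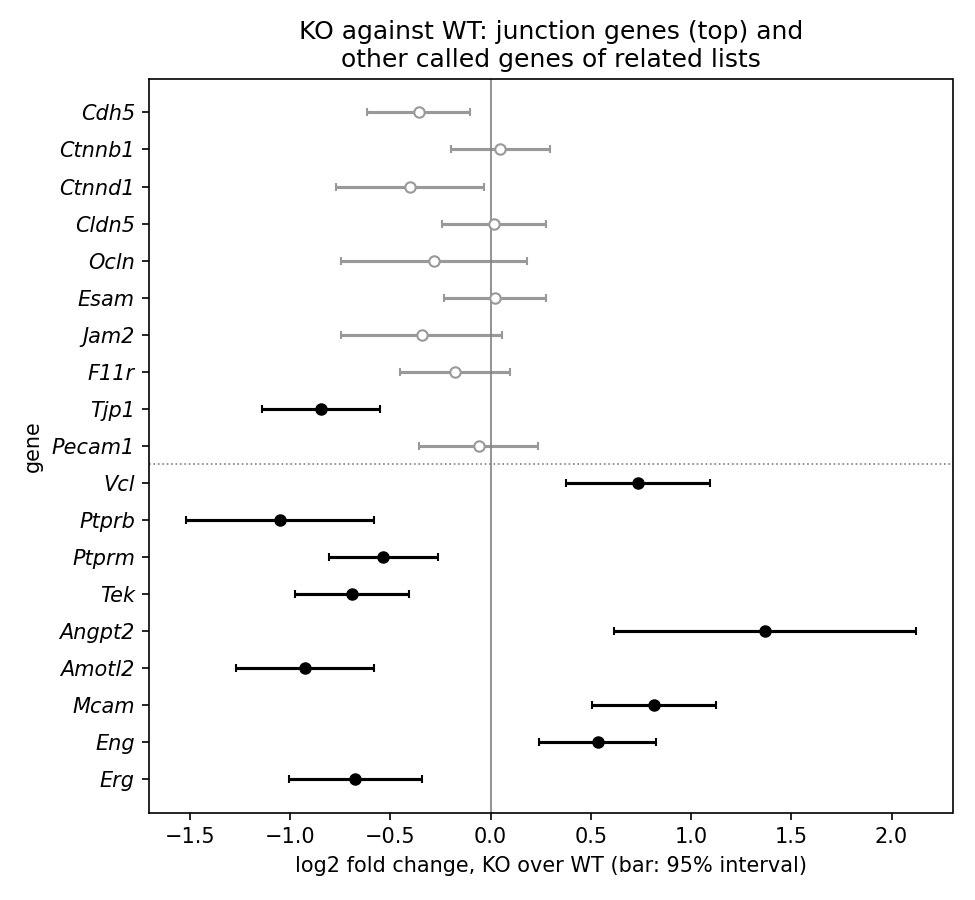
Log2 fold change of KO over WT with its 95% interval for the 10 junction genes (above the dotted line) and for the 9 other genes called from the related lists (below it), where filled black points were called by edgeR and open grey points were not. Tjp1 at -0.85 is the 1 filled point among the 10.

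Of 8 other adhesion genes of the endothelial border 7 were tested, 2 were called higher, against 2.25% of all genes tested, and 0 lower (median log2 fold change 0.33). An unadjusted edgeR p under 0.05 was held by 4 of the 7, against 15.2% of all genes tested. Mcam encodes CD146, an adhesion protein of the endothelial junction, and had 804, 964, 1062 and 862 CPM in the WT replicates 1 to 4, against 2063, 1291, 1577 and 1568 CPM in the KO replicates. The KO libraries all exceeded the WT libraries (log2 fold change 0.82, SE 0.15, edgeR adjusted p = 0.00446), and the call was lost after the length and GC correction (adjusted p = 0.249). Eng encodes endoglin, a coreceptor of the TGF-beta family, and rose from 1236 ± 116 to 1791 ± 333 CPM (edgeR adjusted p = 0.0402). That call was lost without WT replicate 1 (0.0971), WT replicate 3 (0.12), WT replicate 4 (0.102), KO replicate 1 (0.091) or KO replicate 3 (0.138), with the size factors of RLE (0.06) and after the length and GC correction (0.475). Cd47 averaged 200 ± 38.8 (WT) and 149 ± 12.2 CPM (KO) and was not called (edgeR adjusted p = 0.19).

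None of 4 gap junction genes was called by edgeR (0 called, 1 with an unadjusted p under 0.05, median log2 fold change -0.37). With 3.63% of all genes tested called and 15.2% at such a p, 0 called of 4 lies near the share of all genes. Gja4, the gene of connexin 37, averaged 378 ± 53.9 (WT) and 288 ± 23.3 CPM (KO) (edgeR adjusted p = 0.144) and passed by DESeq2 (adjusted p = 0.029). Gja1 had 80.1 ± 25.1 and 62.6 ± 26.6 CPM, and Gja5 103 ± 45.3 and 73.1 ± 39.5 CPM. Of 10 listed targets of Wnt and beta-catenin signalling 6 were tested and 0 called by edgeR, with 1 at an unadjusted p under 0.05 and a median log2 fold change of -0.24. These counts too lie near the shares of all genes tested. Axin2, the feedback inhibitor often used as a readout of this pathway, had 15.8, 30.8, 51.3 and 11.2 CPM in the WT replicates 1 to 4, against 12.2, 13.9, 15.7 and 7.17 CPM in the KO replicates (edgeR adjusted p = 0.248). The KO values all lay within or below the WT range, and the WT libraries spread widely. Nkd1 had 297 ± 35.4 and 263 ± 30.5 CPM, and Tcf7 68.6 ± 24.8 and 55.6 ± 10.3 CPM, and neither was called.

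Of 9 transcription factor genes known to act on Cdh5 or Cldn5, 1 was called lower, against 1.39% of all genes tested, and 0 higher (median log2 fold change -0.14). An unadjusted edgeR p under 0.05 was held by 3 of the 9, against 15.2% of all genes tested. Erg, an ETS factor gene of endothelial identity, had 326, 372, 294 and 264 CPM in the WT replicates 1 to 4, against 238, 160, 190 and 198 CPM in the KO replicates. Every KO library was below every WT library (log2 fold change -0.67, SE 0.16, edgeR adjusted p = 0.0231). The call of Erg was lost without WT replicate 1 (0.0595), WT replicate 2 (0.0772), KO replicate 2 (0.0872) or KO replicate 3 (0.0801), or after the length and GC correction (0.0747). Ets1, another ETS factor gene, averaged 890 ± 69.1 (WT) and 643 ± 109 CPM (KO) without being called (edgeR adjusted p = 0.0676). Its call appeared in 7 alternatives, among them without KO replicate 4 (edgeR adjusted p = 0.0149) and by DESeq2 (0.00302), limma voom (0.0319) and RLE size factors (0.0482). Foxo1, which represses Cldn5, had 158 ± 32.2 and 118 ± 8.45 CPM (edgeR adjusted p = 0.238).

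The genes whose profile over the 8 libraries lay nearest to that of Cdh5 were sought among 9300 genes with a mean of at least 5 CPM that varied at least as much. The measure was the root mean square difference of log2 expression after each gene's mean was removed. The nearest were Sox13, a SOX factor gene (0.0853), Acvrl1, which encodes the BMP receptor ALK1 (0.0912), and Cnot6l, which encodes a deadenylase (0.0995). Acvrl1 averaged 2023 (WT) and 1568 CPM (KO), Sox13 224 and 161 CPM, and Cnot6l 144 and 106 CPM, and none of these 3 was called (edgeR adjusted p = 0.128, 0.107 and 0.173). They were picked for likeness to Cdh5 over these same libraries. Their lower KO means therefore follow from the choice and are no separate result.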

How the data were processed

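The authors deposited a gene-level table of raw counts in whole numbers, and each of its 8 library columns matched a sample label. The tools named in the submitters' processing notes are TopHat, HTSeq, bcl2fastq and edgeR, and the build is mm10. The sources used here name no versions, annotation release or strand setting, so genes that overlap on either strand are uncertain. Of 43430 Ensembl IDs 42462 had a symbol, and exon lengths came from GENCODE (GRCm38). Library totals ran from 6407924 to 13981329 counts, which limits precision for weakly expressed genes, and replicates differed by more than sampling noise.

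After filterByExpr (at least 10 counts, 15 in total) 12689 genes remained, and counts were scaled by TMM. KO and WT (4 libraries each) were compared in R 4.3.3 with edgeR 4.0.16 (quasi-likelihood test, robust, genotype as the term). P-values were adjusted by Benjamini-Hochberg over all genes tested. SE and 95% intervals derive from the F statistic. Alternatives used DESeq2 1.42.0, limma 3.58.1 and the settings named in the closing section. The pipeline was tested on simulated data. Members and lists were chosen with earlier results of these data known. The genes named were the 10 members, those called and up to 3 of smallest p in each other list, the targeted gene, and the 3 profiles nearest to Cdh5. Ctnna1, Jup, Tie1 and the marker genes were named after their values were seen.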

Additional observations from a re-analysis of the deposited data

Results flagged for a closer look

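Within the 4 libraries of a group, 3 values among the genes named lay far from the rest, in 68 groups of values checked, where chance flags about 1 in 20. Ocln had 122 CPM in KO replicate 1, while the other KO libraries held 64.7 to 74.5 CPM. Cldn12 had 6.09 CPM in the same library and 18.4 to 20.4 CPM in the other KO libraries. Cdh13 had 34.7 CPM in WT replicate 4 and 11.6 to 13.9 CPM in the other WT libraries.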

How the results depend on the processing

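Tjp1 was called lower under all 18 alternatives, with log2 fold changes of -0.93 to -0.76 and adjusted p of 1.67e-08 to 0.0228. The count of junction genes called was 2 by DESeq2, by limma voom and with the alveolar type 2 covariate, the second gene being Cdh5 (adjusted p over all alternatives 0.0165 to 0.334), and 1 in the others. Over all genes 461 were called (285 higher, 176 lower), 788 by DESeq2, 746 with edgeR's newer dispersion option, and 270 to 446 without single libraries, the lowest without KO replicate 3. After correction of each library for exon length and GC content 192 were called, 76 higher and 116 lower. That setting moved the median log2 fold change of all genes by -0.11, and relative to the median Tjp1 stood at -0.80 with it and -0.86 without it.

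Uncalled genes near 0 changed sign. Cldn5 had -0.012 with RLE size factors, -0.033 with library totals, -0.012 by DESeq2 and -0.22 after that correction. Esam had -0.0059, -0.027, -0.0060 and -0.15 in these settings and -0.013 with the covariate. Ctnnb1 had -9.98e-06 with library totals and -0.086 after that correction. Relative to the median of all genes, the corrected values were 0.011 for Ctnnb1, -0.13 for Cldn5 and -0.053 for Esam. Without single libraries Pecam1 ranged from -0.19 to 0.033, Cldn5 from -0.046 to 0.11, Esam from -0.027 to 0.083 and Ctnnb1 from -0.039 to 0.11. None of these was called under any alternative.

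Same-numbered libraries did not deviate together (correlations of -0.10 to 0.0044, and 0 of 8 libraries correlated best with their own number), so the replicate number was not taken as a pairing. With it as a replicate block 338 genes were called, 1 of them a junction gene, Tjp1 (log2 fold change -0.84, adjusted p = 0.00854), and Ptprb (0.169), Ptprm (0.0772), Eng (0.104) and Erg (0.0585) did not pass.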
